A study of Mus musculus with 2 samples.

Results

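The cells described here are knockout cells that carried many transcripts of T, the gene for the transcription factor Brachyury, and none of Mesp1. They were taken from the PHD2 knockout library among barcodes in which 1000 or more genes were seen and no more than 10% of the unique molecular identifiers (UMIs) came from mitochondrially encoded genes. A cell was a member with 5 or more T UMIs, 0 Mesp1 UMIs, fewer than 2 Gsc UMIs and fewer than 2 Cdx2 UMIs. The rule took 1827 of 7383 knockout cells, or 24.75% (95% exact binomial interval 23.77 to 25.75), out of 16610 cells within the same limits in both libraries. The cells were chosen by their T, Mesp1, Gsc and Cdx2 counts, so the levels of those genes are a description only, and genes that vary with them are read in the same way.

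The samples were AB2.2 mouse embryonic stem cells, an established line, after 4 days of mesendoderm differentiation, the path toward mesoderm and endoderm. One library (PHD2-KO) came from cells without PHD2 and the other (WT) from wild type cells, both read as droplet single-cell RNA on the 10x Genomics platform. PHD2, encoded by Egln1, is the oxygen-dependent prolyl hydroxylase that marks hypoxia-inducible factor (HIF) for destruction. The sources used here do not say how the knockout was made or whether it was 1 clone or several. With 1 library per genotype there is no test, and every interval below covers counting error only. The member cells had a median of 21495 UMIs and 3951 genes, and the 5556 other knockout cells had 21315 UMIs and 3868 genes. Between the 2 libraries 18 of the kept barcodes were shared.

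Brachyury is a T-box factor that is switched on by Wnt and Nodal signals in the primitive streak, the furrow of the gastrulating embryo through which epiblast cells leave their epithelium. Streak cells that go on to mesoderm turn on Mesp1, a basic helix-loop-helix factor of the earliest mesoderm, and exchange epithelial for mesenchymal adhesion genes. Gsc marks the anterior streak, and Cdx2 the caudal streak and its posterior descendants.

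T UMIs formed 1 continuous range in the knockout library, with no gap at the threshold. T was 0 in 971 knockout cells, 1 to 4 in 2542 and 5 or more in 3870 (52.42%). Of the cells with 5 or more T UMIs, 863 had 2 or more Mesp1 UMIs and 767 had 1. A further 106 had no Mesp1 and 2 or more Gsc UMIs, and 318 had no Mesp1 and 2 or more Cdx2 UMIs, with 11 cells in both. Member cells held a median of 10 T UMIs and a maximum of 60. Just inside the threshold stood 204 member cells with exactly 5 T UMIs, and just outside it 226 cells with exactly 4 that met the other limits. Gsc was at 1 UMI in 140 member cells and Cdx2 at 1 UMI in 422.

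**Figure D1:**
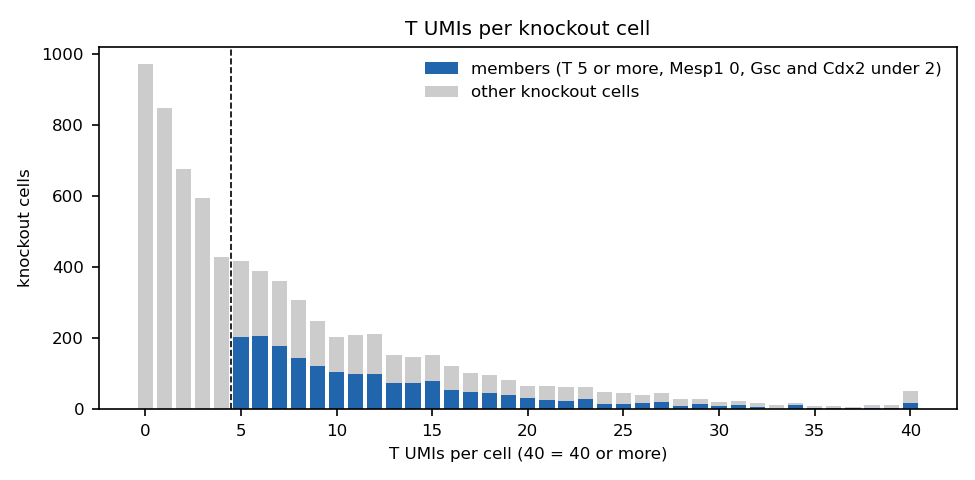
T UMIs per knockout cell (x axis, 40 standing for 40 or more) against the number of cells (y axis), with the 1827 member cells in blue and other knockout cells in grey. The counts of cells fall from 971 cells at 0, and the member cells are part of the range to the right of the dashed line at the threshold.

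Levels were UMIs summed over the cells of a group and scaled to counts per 1000000 UMIs of that group (CPM). T (ENSMUSG00000062327; mm10 chromosome 17, 8434423 to 8442496, plus strand) stood at 516 CPM in the member cells and 259 CPM in the other knockout cells. It was at 453 CPM in the Mesp1 cells (5 or more T UMIs and 2 or more Mesp1 UMIs), 570 CPM in the Gsc cells and 636 CPM in the Cdx2 cells described above. All 9227 wild type cells together had 5.70 CPM of T, and 10 of them met the rule (0.1084%, 0.05198 to 0.1992). Cells with exactly 4 T UMIs lay within 1.5-fold of those with exactly 5 in the marker genes. Fst was at 185 and 216 CPM, Fgf8 at 158 and 194 CPM, and Alox15 at 24.4 and 28.4 CPM on the outer and inner side of the threshold.

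Of the genes offered as markers of these cells beside T, only Alox15 passed the size used here, at least 1.5-fold with 5 CPM or more in the higher group. Alox15 (ENSMUSG00000018924; chromosome 11, 70344152 to 70352031, minus strand), a lipoxygenase that oxidises arachidonic and linoleic acid, was at 39.9 CPM in member cells and 22.0 CPM in the other knockout cells, 1.81-fold higher (1.71 to 1.93). Fgf8 (chromosome 19, 45736798 to 45742915, minus strand), the fibroblast growth factor of the streak, was at 201 and 166 CPM. Fst (chromosome 13, 114452290 to 114458951, minus strand), which encodes the activin antagonist follistatin, was at 286 and 210 CPM. Sp5 (chromosome 2, 70474923 to 70477729, plus strand), a zinc finger factor and direct Wnt target, was at 66.6 CPM in member cells and 77.4 CPM in the others. Fgf8, Fst and Sp5 therefore stayed within 1.5-fold. In the Mesp1 cells Fgf8 was at 257 CPM, Fst at 339 CPM and Sp5 at 103 CPM, above the member cells in each case, with Sp5 past 1.5-fold (1.55-fold, 1.47 to 1.64).

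The same order appeared when single cells were scored. Every cell was first reduced to 10000 randomly drawn UMIs; 24 member cells and 234 other knockout cells were shallower and did not enter. At least 1 Fst UMI was then found in 83.6% of member cells (81.9 to 85.3), 65.9% of other knockout cells, 89.9% of Mesp1 cells and 37.1% of T-negative cells. The T-negative cells are 642 knockout cells with 0 T, 0 Mesp1 and fewer than 2 Gsc and Cdx2 UMIs (median depth 18459 UMIs). Of these, 92 were among the shallower cells left out, so the T-negative shares rest on the 550 deeper ones. The T-negative cells serve here as 1 background for streak transcripts, chosen for 0 T and 0 Mesp1. A second background, which can share cells with the first, is the naive pluripotent-like cluster described below, its member cells left out. Its levels were lower for Fgf8 (31.4 CPM, against 47.9 CPM in T-negative cells), Sp5 (29.8 and 42.7 CPM) and Igfbp3 (15.3 and 26.3 CPM), and alike for Fst (64.6 and 63.6 CPM). Alox15 was found in 30.7% of member cells, 17.5% of other knockout cells, 22.3% of Mesp1 cells and 6.36% of T-negative cells. Sp5 was found in 39.3% of member cells, 40.7% of other knockout cells and 24.55% of T-negative cells; of the 4 markers its share in member cells lay closest to that in T-negative cells. Fgf8 was found in 64.8% of member cells and 22.0% of T-negative cells. All 4 markers together were found in 8.15% of member cells and none of them in 4.05%. Without thinning those shares were 28.1% and 0.766%, and the single shares were 94.4% for Fst, 78.5% for Fgf8, 59.4% for Sp5 and 53.2% for Alox15.

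T and Sp5 are both textbook targets of Wnt signalling, and their proximal promoters are shown because T chose the cells while Sp5 was lower in the member cells than in the Mesp1 cells. Each run is the 250 bases before the RefSeq start (GRCm38.p6, the assembly of mm10, plus strand) at chr17:8434173-8434422 for T and chr2:70474673-70474922 for Sp5. Capitals mark a form of the core hexamer bound by TCF/LEF factors, CTTTGA or its reverse complement TCAAAG. The form CTTTGT, or ACAAAG in reverse, was not searched for, and where it occurs in the Sp5 run it is in lower case.
T: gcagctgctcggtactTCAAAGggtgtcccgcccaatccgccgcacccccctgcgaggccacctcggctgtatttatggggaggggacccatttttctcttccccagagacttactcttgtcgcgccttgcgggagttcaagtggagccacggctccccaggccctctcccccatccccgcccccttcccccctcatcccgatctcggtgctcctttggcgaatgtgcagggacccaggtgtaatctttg
Sp5: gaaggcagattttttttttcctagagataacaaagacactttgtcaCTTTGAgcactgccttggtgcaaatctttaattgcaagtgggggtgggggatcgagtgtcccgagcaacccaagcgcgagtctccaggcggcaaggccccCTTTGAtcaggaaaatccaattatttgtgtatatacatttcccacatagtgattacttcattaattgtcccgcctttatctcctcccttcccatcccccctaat
T held 1 such hexamer, starting 234 bases before the start, and Sp5 held 2, at 204 and 104 bases. The hexamer occurs on either strand in 13.8% of all 32851 promoters of that length, so its presence is a description of the letters and not a site. The Brachyury half-site AGGTGTGA, which occurs in 1.12% of promoters on either strand, was in neither window. Of the other promoters looked up and found, that of Mesp1 held the marked hexamer, and those of Igfbp3, Lhx1 and Cyp26a1 did not.

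The first comparison set the member cells against all other knockout cells. The differences were few: of 8586 genes with 5 CPM or more in the higher group, rule genes left out, 39 were at least 1.5-fold higher in the member cells (0.454%) and 86 at least 1.5-fold lower (1.0%), or 1.46% in either direction. The median log2 ratio over all of them was 0.01 (pseudocount 1 CPM, which understates low genes). Alox15 had the highest ratio among genes of 20 CPM or more. Igfbp3, which binds and sequesters insulin-like growth factors, followed with 123 against 71.3 CPM (1.72-fold, 1.67 to 1.78). Tdrd5, a tudor-domain gene of the germline, was at 23.4 and 13.8 CPM, the drug and glutathione exporter Abcc1 at 25.9 and 16.3 CPM, and the interferon-induced ubiquitin-like modifier Isg15 at 27.1 and 17.9 CPM. No excess other than that of a rule gene passed 2-fold for a gene of 20 CPM or more.

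Several genes of nascent mesoderm were among the 15 genes of 20 CPM or more with the lowest ratios. Lhx1, a homeobox gene of anterior and nascent mesoderm, was at 5.84 CPM in member cells and 43.0 CPM in the others (7.36-fold lower, 6.49 to 8.38). Cyp26a1, which degrades retinoic acid, was at 4.65 and 34.2 CPM, and the imprinted placental growth regulator Phlda2 at 188 and 544 CPM. Fibronectin (Fn1) was at 51.2 and 110 CPM, N-cadherin (Cdh2) at 13.8 and 27.95 CPM, and the T-box factor Eomes at 30 and 57.4 CPM. Mixl1, a homeobox gene of the streak, was also lower (49.4 and 84.0 CPM). The other 8 of the 15 were Lmo1, Gpc3, Efna3, Hmga2, Upp1, Pcdh7, Tdh and Sct, with Upp1, the uridine phosphorylase, at 91.4 and 179 CPM. On the list of anterior streak, node and endoderm genes 3 were measured and 0 were lower. Of the nascent mesoderm list 9 of 14 genes were measured, 7 were lower and 1 (Apln, the apelin ligand) higher, with a median log2 ratio of -1.09. Of the 13 streak genes other than T all were measured, 1 was higher and 3 lower (median -0.09).

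These differences depended on which other cells stood in the comparison. Leaving out clusters 0 and 1, the knockout clusters richest in mesoderm genes, left 8 genes higher and 54 lower. Alox15 was then at 40.1 and 25.2 CPM and Igfbp3 at 123 and 83.6 CPM, while Cdh2 (13.3 and 13.7 CPM), Eomes (29.5 and 31.1 CPM) and Mixl1 (48.3 and 47.3 CPM) were level. Lhx1 was still lower, at 5.40 and 9.75 CPM, and so was Cyp26a1, at 4.08 and 7.93 CPM.

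The second comparison set the member cells against the 863 Mesp1 cells, which had as many T UMIs (median 10 in both) but were deeper (median 25476 UMIs) and more often among the highest doublet scores (15.6% against 6.68%). Of 8646 genes 242 were higher in the member cells (2.80%) and 174 lower (2.01%), which is 4.81% in either direction. Epithelial genes were on the higher side. Of 13 measured genes 9 were higher and 0 lower (median 0.73, against -0.01 over all genes). The tight junction claudins Cldn6 (54.1 and 26.8 CPM) and Cldn7 (148 and 79.1 CPM) were among them. So were the apical polarity gene Crb3 (39.4 and 19.4 CPM), the keratin Krt19 (182 and 98.1 CPM), E-cadherin (Cdh1, 73.2 and 43.7 CPM, 1.67-fold, 1.56 to 1.80) and Epcam (284 and 186 CPM). The desmosome gene Dsp was level (48.6 and 49.0 CPM).

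Genes of mesoderm and of mesenchyme were on the lower side. Of 14 nascent mesoderm genes 13 were measured and 12 were lower (median -1.79); these genes are known to accompany Mesp1, which chose the 2 groups. Cyp26a1 was at 4.65 CPM in member cells and 66.5 CPM in Mesp1 cells, and Mesp2, the neighbour and paralogue of Mesp1, at 0.779 and 12.9 CPM. Snai1, the repressor of E-cadherin, was at 3.85 and 30.5 CPM (7.92-fold lower, 6.70 to 9.42), Fn1 at 51.2 and 180 CPM and Cdh2 at 13.8 and 50.6 CPM. Of 9 measured mesenchymal genes 5 were lower and 0 higher, and vimentin (Vim) was level at 342 and 340 CPM. The lateral and extraembryonic mesoderm factors Gata6 (0.687 and 17.1 CPM) and Tbx3 (2.59 and 19.5 CPM) were also low in the member cells.

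Streak genes split between the 2 groups. Eomes (30 and 100 CPM), Mixl1 (49.4 and 172 CPM), Lhx1 (5.84 and 99.8 CPM), the Nodal co-receptor Tdgf1 (262 and 544 CPM), Evx1 (22.0 and 40.4 CPM) and Sp5 were lower in the member cells. The ligand Nodal was higher (79.6 and 48.9 CPM), and its antagonist Lefty1 was at 46.3 and 28.6 CPM while Lefty2 was at 9.82 and 22.1 CPM. Fgf8, Fst, Wnt3 (33.3 and 44.6 CPM), Wnt8a (15.6 and 10.7 CPM), Fgf17 (11.1 and 10.5 CPM) and Alox15 (39.9 and 27.95 CPM) lay within 1.5-fold. The epiblast gene Utf1 had the highest ratio among genes of 20 CPM or more (89.5 and 40.2 CPM, 2.23-fold, 2.08 to 2.39). Pou5f1 (124.9 and 101 CPM), Nanog (49.4 and 44.7 CPM) and Sox2 (18.0 and 16.0 CPM) were alike.

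Cells with exactly 1 Mesp1 UMI lay between the 2 groups for these genes. Lhx1 was at 5.84 CPM in member cells, 12.1 CPM in the 767 cells with 1 Mesp1 UMI, 22.8 CPM in the 277 cells with 2 to 4 and 136 CPM in the 586 cells with 5 or more. Mixl1 went from 49.4 to 72.1, 104 and 204 CPM over the same steps, and Phlda2 from 188 to 228, 254 and 765 CPM. Cldn6 went the other way, from 54.1 to 48.2, 40.6 and 20.3 CPM. Alox15 and Igfbp3, the highest ratios of the first comparison, were level between member cells and cells with 1 Mesp1 UMI. Over the same steps Alox15 was at 39.9, 37.3, 36.9 and 23.7 CPM, and Igfbp3 at 123, 122.6, 107.7 and 70.8 CPM. Their levels were therefore not particular to the member cells. For comparison, the naive pluripotent-like cluster described below, its member cells left out, held 29.6 CPM of Mesp1 (26.0 to 33.7) and 74.5 CPM of T. The part of free RNA in these counts was not tested.

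**Figure D2:**
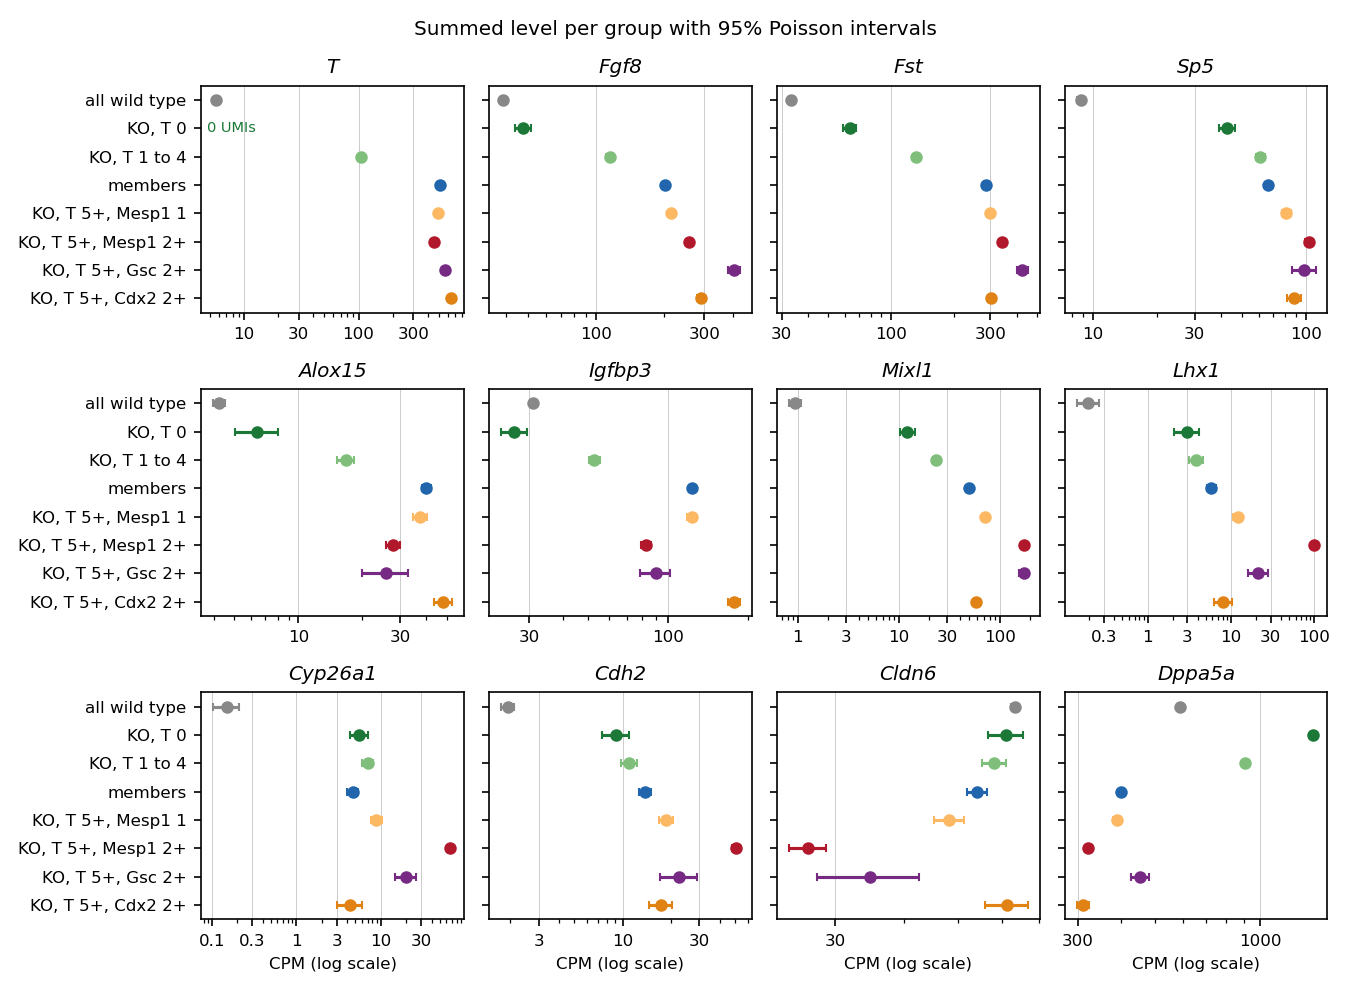
Summed level in CPM (x axes, log scale, each gene on its own range) of 12 genes in wild type cells and in 7 groups of knockout cells (rows), with 95% Poisson intervals. T, Fst and Fgf8 are at least as high in the cells with 2 or more Gsc UMIs as in the member cells; Lhx1, Cyp26a1 and Cdh2 are highest in the Mesp1 cells, and Dppa5a is highest where T is 0.

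The third comparison set the member cells against the 642 T-negative knockout cells. Of 8772 genes 324 were higher in the member cells (3.69%) and 329 lower (3.75%), which is 7.44% in either direction, with a median log2 ratio of 0.02. Of the 13 streak genes 11 were higher and 0 lower (median 0.77). Alox15 was at 39.9 and 6.43 CPM (6.21-fold, 4.94 to 7.91), Fst at 286 and 63.6 CPM, Fgf8 at 201 and 47.9 CPM, Mixl1 at 49.4 and 12.2 CPM and Evx1 at 22.0 and 7.68 CPM. Eomes (30 and 18.9 CPM), Wnt3 (33.3 and 20.8 CPM) and Sp5 (66.6 and 42.7 CPM) were less far apart, and Nodal was level (79.6 and 82.0 CPM). The label's markers were thus all higher than in T-negative cells, and Fgf8, Fst and Sp5 were at least as high in the Mesp1 and Gsc cells.

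The measured caudal genes were also higher than in T-negative cells. All 4 measured of 10 caudal genes were higher (median 1.3), among them Hoxb1 (21.5 and 3.17 CPM), an anterior Hox gene that is on early in the posterior streak, and Wnt5b (20.1 and 8.10 CPM). Against the Mesp1 cells the same list went the other way, with 1 of 6 measured genes higher (Nkx1-2), 4 lower (Hoxb1, Hoxb2, Greb1 and Evx1) and a median of -0.77. Rspo3, a potentiator of Wnt signalling, was at 20.2 and 4.09 CPM in member and T-negative cells, while the ligand Wnt4 was lower in member cells (16.1 and 32.1 CPM). Of 9 measured Wnt target and feedback genes Sp5 and Sp8 were higher and the secreted antagonist Dkk1 lower (2.175 and 5.26 CPM), and Axin2, the standard feedback target, was at 28.8 and 23.8 CPM.

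Antigen processing and interferon genes were higher as well. Of 15 measured genes 9 were higher and 0 lower (median 0.70). The immunoproteasome subunit Psmb8 was at 81.0 and 22.5 CPM (3.61-fold, 3.19 to 4.10), Irf1 at 46.7 and 15.5 CPM and Isg15 at 27.1 and 7.59 CPM, while B2m was level at 87.6 and 96.9 CPM. Against Mesp1 cells 1 of 15 was higher (Bst2) and 1 lower (Ifitm1), and Psmb8 was at 84.4 CPM in those cells.

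Pluripotency genes were on the lower side. Of 10 measured naive genes 9 were lower and 0 higher (median -1.56), including Klf2 (5.66 and 44.5 CPM), Spp1 (7.72 and 60.4 CPM), Dppa5a (401 and 1420 CPM) and Dppa3 (2.77 and 17.2 CPM). Of 14 general pluripotency genes 8 were lower, among them Sox2 (18.0 and 57.4 CPM) and Gdf3 (6.0 and 29.04 CPM). The T-negative cells can include cells of the naive cluster 13, which held 161 CPM of Klf2 and 4928 CPM of Dppa5a. How many they share was not counted, and this comparison was not repeated without that cluster. These levels therefore need not hold for T-negative cells in general. The threonine dehydrogenase Tdh was at 19.3 and 98.0 CPM and the thyrotropin-releasing hormone gene Trh at 91.1 and 338 CPM. Pou5f1 (124.9 and 109 CPM) and Nanog (49.4 and 39.7 CPM) were not lower, and the formative epiblast gene Fgf5 was higher (24.8 and 8.60 CPM).

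**Figure D3:**
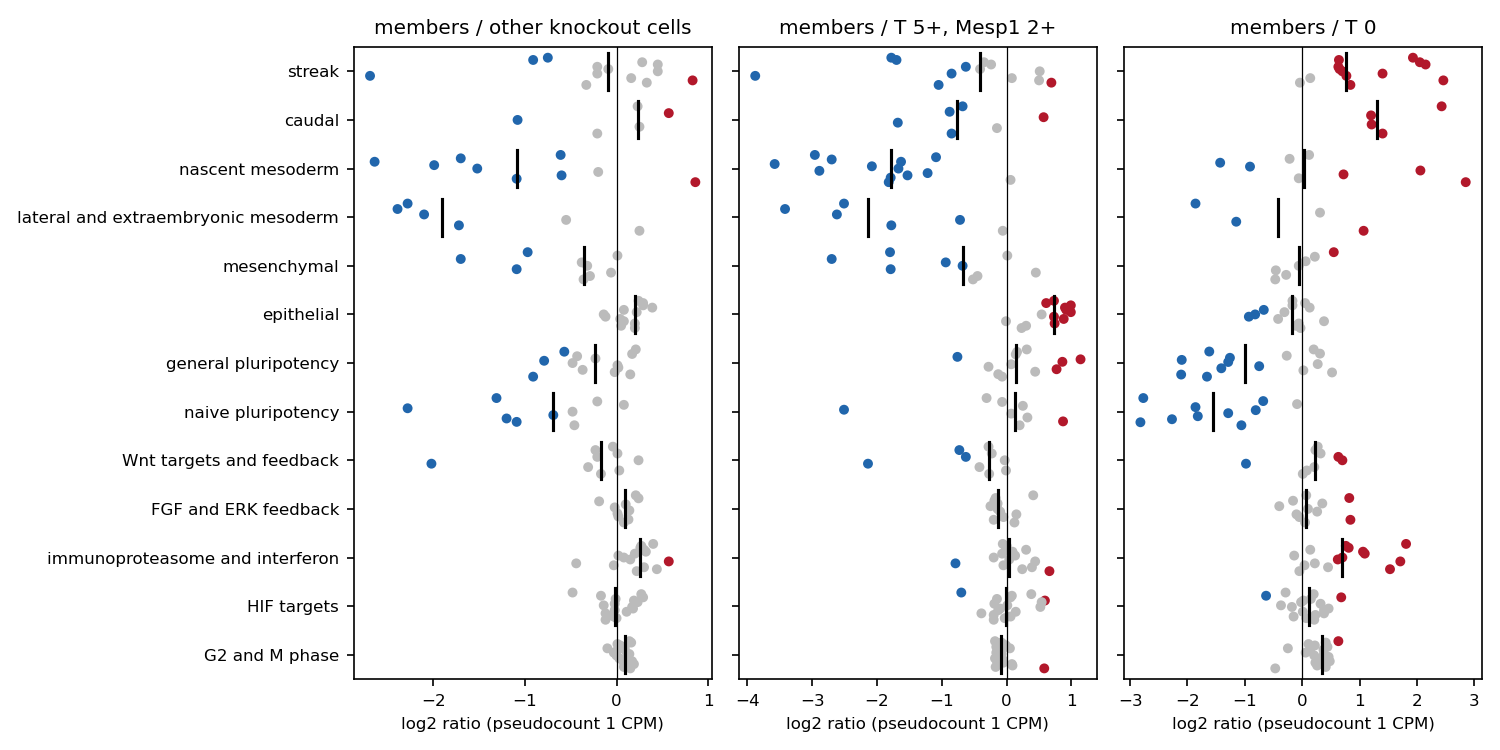
Log2 ratio (x axis, pseudocount 1 CPM) of each measured gene of 13 lists (rows) in member cells over the other knockout cells, the Mesp1 cells and the T-negative cells, rule genes left out. Red points are 1.5-fold or more higher, blue points 1.5-fold or more lower, grey points between, and black bars are medians; the epithelial list stands above 0 against the Mesp1 cells and the naive list below 0 against the T-negative cells.

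Genes of the oxygen response, like most genes, did not separate the member cells from other knockout cells. Egln1, the targeted gene (chromosome 8, 124908587 to 124949324, minus strand), was at 13.5 CPM in member cells (12.4 to 14.7), 13.7 CPM in the other knockout cells and 18.1 CPM in all wild type cells. Which stretch of Egln1 was changed is not stated in the sources, so these levels do not check the knockout. Egln1 also moved with the chromosome 8 share described at the end: it was at 17.54 CPM in member cells whose share of chromosome 8 UMIs was below 6% and 10.6 CPM in those at 6% or more (1.65-fold, 1.40 to 1.95). In T-negative cells it was at 15.45 and 7.84 CPM in the same order. Of 18 measured HIF targets 0 passed 1.5-fold against the other knockout cells, where 1.46% of all genes did. In the Mesp1 and T-negative comparisons 1 was higher and 1 lower, with 4.81% and 7.44% of all genes past 1.5-fold. So few calls do not set the list apart from all genes. Ldha, which makes lactate, was at 1414 CPM in member cells, 1533 CPM in other knockout cells, 1847 CPM in Mesp1 cells and 1084 CPM in T-negative cells. In wild type cells it was at 688 CPM. Egln3, a hydroxylase gene that HIF induces, was at 6.78, 5.86, 7.33 and 4.67 CPM in the same 4 knockout groups and at 1.91 CPM in wild type cells. No gene of the 20 on the S phase list passed 1.5-fold in these 3 comparisons. Of the 20 on the G2 and M phase list Ckap2 was higher than in Mesp1 cells and Top2a than in T-negative cells. Given the same shares over all genes, these calls do not set the 2 lists apart either. The G2 and M phase median was nonetheless 0.34 against T-negative cells, where the median over all genes was 0.02. It was 0.09 against the other knockout cells and -0.08 against Mesp1 cells. The S phase medians were 0.04, 0.01 and 0.10 against the other knockout, Mesp1 and T-negative cells.

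Lists for other cell types differed in how much RNA they held in the member cells. Summed over the 9 feeder fibroblast genes the level was 5.34 CPM, with 2 genes at 0, and over the 10 visceral endoderm genes 9.80 CPM, with 3 at 0. The 9 genes of the 2-cell-like list gave 1.21 CPM in member cells and 34.9 CPM in T-negative cells. The 8 trophoblast genes gave 13.8 CPM and the 10 neuroectoderm genes 42.7 CPM. The surface ectoderm list gave 235 CPM in member cells, 261 CPM in other knockout cells, 142 CPM in Mesp1 cells and 395 CPM in T-negative cells. Of the member value 202 CPM was Sfn, the epithelial 14-3-3 protein, and the defining keratinocyte genes Krt5, Krt14 and Trp63 were at 0.0916, 0.229 and 0.0229 CPM. The list of anterior streak, node and endoderm genes gave 113 CPM, of which Trh was 91.1 CPM. The haemato-endothelial list gave 53.7 CPM, of which the endothelial and blood factor Etv2 alone was 40.5 CPM. Etv2 was uneven: the 56 member cells of cluster 14, from the clustering given below, had 341 CPM of Etv2 and 111 CPM of Lmo2, another blood and endothelial factor. Member cells of the other clusters with 50 or more of them had 18.5 to 57.2 CPM of Etv2 and 3.63 to 7.06 CPM of Lmo2. Both genes are leading genes of cluster 14, which was made from these same levels, so this difference is a description only.

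Among the member cells themselves, 4 of 13 streak genes (Mixl1, Evx1, Lhx1 and Alox15) were higher at 20 or more T UMIs than at 5 to 9, and 0 were lower. The cells with 5 to 9 (850 cells), 10 to 19 (713) and 20 or more T UMIs (264) had 33.0, 42.6 and 50.3 CPM of Alox15, 35.8, 54.7 and 70.1 CPM of Mixl1 and 91.3, 131 and 182 CPM of Igfbp3. Between the top and bottom bins Fst (243, 300 and 361 CPM) and Fgf8 (187, 203 and 232 CPM) stayed within 1.5-fold. So did Sp5 (66.7, 63.9 and 72.2 CPM), Eomes (31.3, 27.1 and 33.6 CPM) and Nodal (80.4, 80.1 and 76.6 CPM). Trh was lower in the top than in the bottom bin (113, 76.9 and 71.0 CPM), and of 8 measured naive pluripotency genes 4 were lower (Klf2, Dppa3, Spp1 and Fbxo15) and 1 higher (Klf4). Utf1 (102, 82.9 and 74.6 CPM) and Dppa5a (432, 392 and 344 CPM) stayed within 1.5-fold. Of 8746 genes 250 were higher in the top than in the bottom bin (2.86%) and 42 lower (0.480%). The G2 and M phase list had a median log2 ratio of 0.38 between these bins, with 1 of 20 genes (Cenpf) higher. The bins also differed in depth, with medians of 20069, 21892 and 26275 UMIs, and in the share of marked doublets, 5.18%, 7.15% and 10.2%; their part in these differences was not tested.

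T-high cells with Gsc or Cdx2 UMIs, which the rule set aside, differed from the member cells and from each other. In the 106 Gsc cells Mixl1 was at 172 CPM (3.49-fold above the member cells, 3.14 to 3.87), Eomes at 82.3 CPM, Fgf8 at 404 CPM and the Nodal antagonist Lefty1 at 109 CPM. Of 13 epithelial genes 9 were lower there, among them Krt19 (61.6 against 182 CPM). In the 318 Cdx2 cells the epithelial genes were level with the member cells, with 0 of 13 past 1.5-fold. The share of all genes past 1.5-fold was not counted for the Gsc and Cdx2 cells, so these list counts have no background beside them. Nkx1-2, a gene of caudal progenitors, was at 13.6 against 7.08 CPM, while in the Gsc cells it was at 3.08 CPM. Prdm1, a factor of primordial germ cells, was at 5.67 against 1.76 CPM in the Cdx2 cells and at 1.54 CPM in the Gsc cells. Other genes were higher in both the Cdx2 and the Gsc cells than in the member cells. They were Evx1 (34.5, 33.9 and 22.0 CPM in Cdx2, Gsc and member cells), Psmb8 (147, 131 and 81.0 CPM) and the germ cell genes Dnd1 (74.5, 60.0 and 34.3 CPM) and Tfap2c (7.96, 8.08 and 3.39 CPM).

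The Gsc and Cdx2 cells also differed from the member cells in chromosome 8 share, described at the end, with 66.0% and 65.1% of them below 6% against 40.2% of the member cells. Compared within cells below 6%, Psmb8 was at 156 CPM in Gsc cells, 187 CPM in Cdx2 cells and 137 CPM in member cells, within 1.5-fold in both cases. At 6% or more it was at 82.7, 66.0 and 40.8 CPM, past 1.5-fold in both. Evx1 was also within 1.5-fold below 6%, at 32.6 CPM in Gsc cells, 33.5 CPM in Cdx2 cells and 22.7 CPM in member cells, and past it above (36.25, 36.5 and 21.4 CPM). Tfap2c in Cdx2 cells was past it below 6% (10.04 against 4.00 CPM) and within it above (3.69 against 2.95 CPM). Fgf8 in Gsc cells was at 474 against 310 CPM below 6% and at 267 against 123 CPM above. Lefty1 in Gsc cells was at 140 against 58.4 CPM below 6%, and within 1.5-fold above (48.7 against 37.6 CPM). Dnd1 in Cdx2 cells was at 94.8 against 57.5 CPM below 6% and at 32.8 against 17.6 CPM above, and in Gsc cells within 1.5-fold below 6% (76.3 against 57.5 CPM). Mixl1 in Gsc cells (179 against 51.9 CPM, and 159 against 47.6 CPM) and Nkx1-2 in Cdx2 cells (13.6 against 7.56 CPM, and 13.6 against 6.73 CPM) were higher in both.

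The member cells formed no cluster of their own when knockout cells were clustered without T, Mesp1, Gsc, Cdx2, mitochondrial and ribosomal protein genes. They were spread over most of the 16 clusters, and no cluster was more than 41.0% members. Cluster 8, led by the mitosis genes Cenpf, Nusap1 and Aspm, had that share (37.1 to 45.1). Cluster 9, led by histone genes, was 38.2% members and held 18.8% of all member cells. Cluster 7 (Sprr2a3, Hoxb1, Dnd1) was 37.4% members, cluster 3 (Isg20, Sprr2a3, Isg15) 35.6%, cluster 10 (Pim2, Tex15, Dnmt3b) 31.2% and cluster 5 (Prss23, Cxcl10, S100a6) 29.7%. The rule uses raw UMIs, and the clusters differed in depth. Median UMIs were 27175 in cluster 8, 27241 in cluster 5, 17901 in cluster 7 and 10902 in cluster 2, which was 8.67% members. The part of depth in these shares was not tested.

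Member cells were rare in the mesoderm and naive clusters. They made up 0.994% of cluster 0 (Tbx3, Pmp22, Fgf10), 1.18% of cluster 1 (Lhx1, Frzb, Pdgfra) and 3.57% of cluster 13. These low shares are tied to the rule, which asks for 0 Mesp1 and 5 or more T UMIs, and are no separate result. Mesp1 was at least 2-fold above all other knockout cells in clusters 0 and 1. Cluster 13, its member cells left out, held 74.5 CPM of T. Cluster 13 was naive pluripotent-like by 9 naive markers that were at least 2-fold above all other knockout cells, Klf2 and Dppa5a among its leading genes. Within the member cells levels differed by cluster. The clusters were made from the levels of these same cells, so such differences are a description only. Hoxb1 was at 77.6 CPM in those of cluster 7 and 10.1 CPM in those of cluster 5, and Krt19 at 459 CPM in those of cluster 5 and 41.9 CPM in those of cluster 10. Fgf8 ranged from 76.5 CPM in cluster 4 to 335 CPM in cluster 7, Alox15 from 28.2 CPM in cluster 14 to 52.2 CPM in cluster 7, and Sp5 from 51.4 CPM in cluster 10 to 75.6 CPM in cluster 8, over the 9 clusters with 50 or more member cells.

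**Figure D4:**
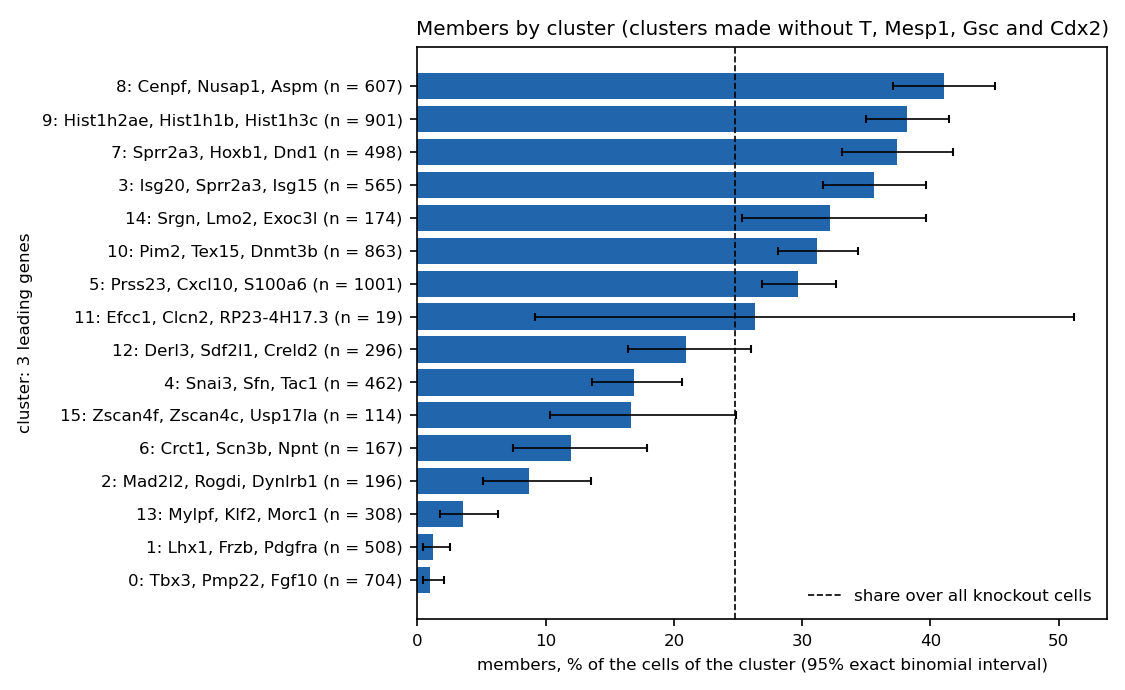
Share of member cells (x axis, % of the cells of the cluster, with 95% exact binomial intervals) in each of the 16 clusters of the knockout library (rows, with 3 leading genes and the number of cells). The dashed line is the share over all knockout cells; the shares run from 0.994% in cluster 0 to 41.0% in cluster 8.

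Knockout cells also fell into 2 groups by the share of their UMIs that came from genes of chromosome 8, with few cells near 6%; this split was made after the data were seen. Of the member cells 735 (40.2%, 37.97 to 42.52) were below 6%. The same held for 47.1% of the other knockout cells, 65.6% of the Mesp1 cells, 30.1% of the T-negative cells, 66.0% of the Gsc cells and 65.1% of the Cdx2 cells. Members made up 21.9% of the knockout cells below 6% and 27.1% of those at 6% or more. T was alike in the member cells below and above 6%, at 530 and 506 CPM, and so was Fst, at 281 and 291 CPM. Fgf8 was apart, at 310 and 123 CPM (2.52-fold, 2.41 to 2.63). Psmb8 (137 and 40.8 CPM), Isg15 (42.8 and 15.9 CPM), Dnd1 (57.5 and 17.6 CPM) and Igfbp3 (164 and 93.8 CPM) were higher below 6%. The cell cycle inhibitor Cdkn2a (10.1 and 34.6 CPM) and the growth cone gene Gap43 (12.99 and 34.26 CPM) were lower there. Of 8666 genes 198 were higher in member cells below 6% (2.28%) and 166 lower (1.92%), of which 90 lie on chromosome 8. Genes of chromosome 8 are lower there as a group by the way the cells were split, so that number is no separate result.

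Results of the comparisons were therefore taken within each of these 2 groups. Alox15 was at 44.1 CPM in member cells and 23.6 CPM in other knockout cells below 6%, and at 36.9 and 20.5 CPM at 6% or more, so its excess stood in both. Igfbp3 was at 164 and 91.4 CPM below 6%, and at 93.8 and 52.0 CPM above. Mixl1 was lower than in the other knockout cells below 6% (51.9 and 118 CPM) and level above (47.6 and 50.8 CPM). Against the Mesp1 cells Fgf8 was level below 6% (310 and 293 CPM) and lower above (123 and 191 CPM), and the epithelial median was 0.80 below and 0.52 above. Trh was higher than in Mesp1 cells below 6% only (86.2 and 26.3 CPM, against 94.6 and 91.6 CPM above). Against the T-negative cells Psmb8 was at 137 and 50.2 CPM below 6% and at 40.8 and 10.1 CPM above. Of the 242 genes higher than in Mesp1 cells 12% lie on chromosome 8, where 5.84% of the tested genes lie.

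**Figure D5:**
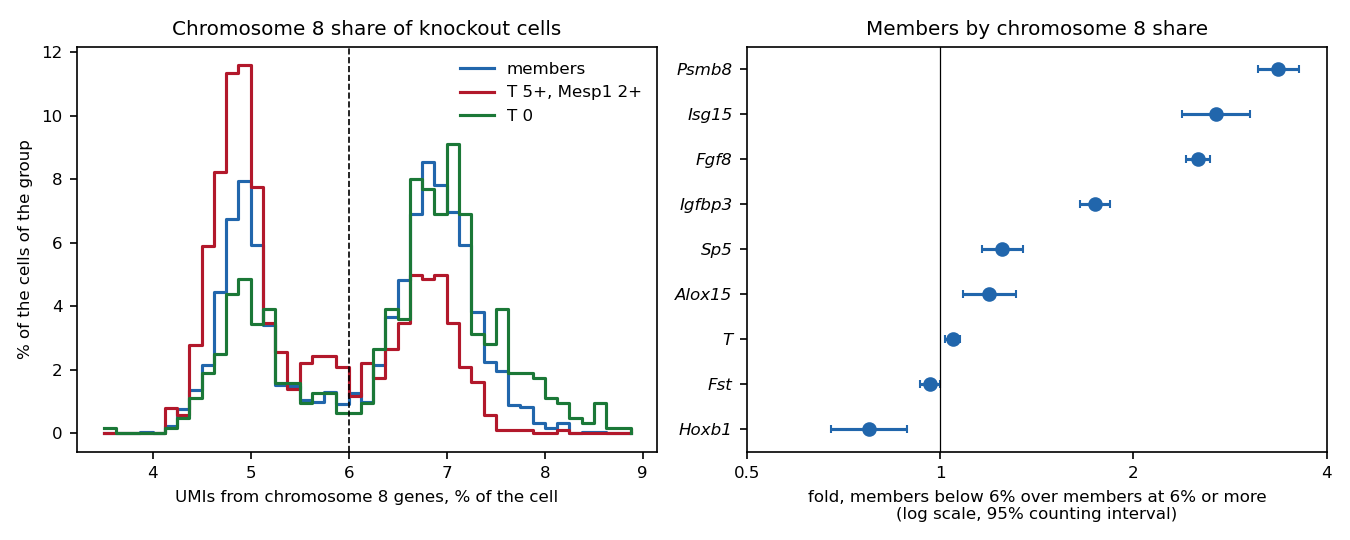
Left, share of a cell's UMIs from chromosome 8 genes (x axis, %) against the share of cells of the group (y axis, %) for member, Mesp1 and T-negative knockout cells, with the split at 6% dashed. Right, fold of 9 genes in member cells below 6% over member cells at 6% or more (log scale, 95% counting interval); Psmb8, Isg15, Fgf8 and Igfbp3 lie above 1.5 while T and Fst lie near 1.

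Against the wild type library every marker was higher in the member cells, with no replicate check. T was at 516 against 5.70 CPM, Fst at 286 against 33.2 CPM, Fgf8 at 201 against 39.0 CPM, Alox15 at 39.9 against 4.25 CPM, Sp5 at 66.6 against 8.80 CPM and Mixl1 at 49.4 against 0.939 CPM. Genotype and library cannot be told apart here.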

How the data were processed

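The authors deposited 1 matrix of whole-number UMI counts per gene and barcode for each library, in the format and with the version line of Cell Ranger 4.0.0, per the file headers. Tools and build in the submitters' processing notes are Seurat, Cell Ranger and mm10. The counts are not normalized. Wild type cells gave 9651 barcodes with 226179474 UMIs in all. The knockout matrix held 7713 barcodes and 173470962 UMIs, of which the gene limit removed 298 barcodes and the mitochondrial limit applied to 150 (some to both). All cells and gene lists were chosen with earlier results of these data known, so neither is independent of them. Groups of cells were summed and scaled to CPM. Levels have exact Poisson intervals, folds exact conditional binomial (Clopper-Pearson) intervals and shares exact binomial intervals, at 95%. Cells are not replicates, and 1 library per genotype allows no test.

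A gene counted as measured if its higher group reached 5 CPM, and as called at 1.5-fold. Named genes are the rule genes and markers, oxygen-sensing genes, the 15 highest and 15 lowest ratios of each comparison among genes of 20 CPM or more, list members, the 10 genes at either end of the T bins, and cluster leaders. Genes named for the chromosome 8 split were chosen after their values were seen. Lists were 37 in number. Clusters used scanpy 1.11.5 (2000 variable genes, 30 components, 15 neighbours, Leiden resolution 1). Scrublet marked 0 knockout cells at its own threshold, under the 0.5% of a working call, so no cell was removed; an alternative removed the 456 highest scores (6.18%). The calling step was tested on simulated counts that held counting error only. It recovered nearly all genes of 20 CPM or more that were changed by 2-fold or more. That simulation does not cover calls at 1.5-fold, genes from 5 CPM, or differences between cells or libraries. Gene positions are from GENCODE M21 and promoters from RefSeq, of which 6 of 10 genes looked up had one.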

Additional observations from a re-analysis of the deposited data

How the results depend on the processing

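Of the counts of cells or genes under the alternatives, 108 stayed within 1.5 times and 39 did not. With 10 or more T UMIs the rule took 977 cells. The rule on thinned counts, named below, also lowered the T limit, to 3 or more UMIs out of 10000. It therefore does not show the effect of depth alone. Against the other knockout cells the genes higher in member cells numbered 23 with T of 3 or more, 74 with T of 10 or more, 10 with Gsc and Cdx2 both 0, 79 with the rule on thinned counts, 61 with thinned levels, 59 with the mean of per-cell CPM and 75 with a chromosome 8 share below the median. Higher and lower genes there numbered 85 and 132 with a chromosome 11 share at or above the median, 93 and 136 below 6% of chromosome 8, 8 and 54 without clusters 0 and 1, 124 and 293 from 1 CPM, 10 and 20 from 20 CPM, and 1 and 44 at 2-fold. Against Mesp1 cells the higher genes numbered 130 with T of 10 or more, 452 with the rule on thinned counts, 126 with a chromosome 11 share below the median and 383 with cells weighted to member depth; higher and lower were 708 and 444 from 1 CPM, 70 and 58 from 20 CPM, and 29 and 78 at 2-fold. Against T-negative cells 512 were higher below 6% of chromosome 8, and higher and lower were 691 and 1055 from 1 CPM, 120 and 100 from 20 CPM, and 102 and 143 at 2-fold. Thinned levels gave 657 and 206 between T bins. The cause was not tested, except that other CPM and fold limits change the counts by construction.

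Of the gene ratios under the alternatives, 2146 were classed as the same, 707 as moved and 3 as reversed in sign. Of the list medians 1619 were classed as the same and 376 as moved. All 4 shares compared were classed as moved. The reversed ratios against the other knockout cells, without clusters 0 and 1, were Pcdh7 (0.03) and Mixl1 (0.03). Against Mesp1 cells it was Trh (-0.05), at or above the median chromosome 8 share. The rule on thinned counts, with its T limit of 3 or more, took 1447 of the member cells (79.2%). They made up 66.8% of the cells it took. No paired analysis was possible because each genotype has 1 library. Shares thinned near 1 UMI per cell, as for Sp5, do not show small differences.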
